A study of Mus musculus with 36 samples.

Results

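The lysosome is the acidic compartment in which cells break down proteins, lipids and sugars, and in microglia, the phagocytes of the brain, it also digests what the cells take up. Its acid comes from the V-ATPase, a proton pump with a membrane sector, V0, that carries protons, and a cytosolic sector, V1, that hydrolyses ATP to drive it. Many genes of the compartment are switched on together by the transcription factors TFEB and TFE3, which bind a CACGTG-containing element in their promoters. The expression of 41 such genes was followed in cultured mouse microglia and astrocytes. They were taken by symbol from a fixed list and comprised 5 V0 subunits, 8 V1 subunits, 2 V-ATPase accessory proteins, 5 lysosomal membrane proteins, 8 cathepsins, 6 glycosidases, 4 genes for lipid handling and soluble cofactors, the peptidase Tpp1, and Tfeb and Tfe3. All 41 were present in both tables, among 15385 microglial and 14551 astrocyte genes, and all 41 passed the filter on low values in both, among 10524 and 13842 genes tested.

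The cells were grown from pooled brains of C57BL/6 mice, 2 to 4 days of age, as mixed glia. Microglia were selected with antibodies to CD11b, and astrocytes were sorted from the cells that remained. Treatment lasted 4 h with DMSO (the vehicle), with Nec-1s (N, an inhibitor of the kinase RIPK1), with TNF and the TAK1 inhibitor 5z-7 (T/5z, a stimulus for RIPK1-dependent apoptosis), or with TNF, a Smac mimetic and the caspase inhibitor zVAD (T/S/Z, a stimulus for necroptosis), and each stimulus was also combined with Nec-1s (written T/5z/N or T/S/Z/N). Astrocytes received no T/5z. The microglial table held 24 libraries, 4 per treatment, and that of astrocytes held 12 libraries, 3 per treatment. The study's methods describe replicates of cultured cells in general as coming from separate litters, and the labels do not repeat this for these libraries. Neither stimulus was compared with TNF alone, so effects of TNF and of the inhibitors given with it cannot be told apart.

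Values are log2(FPKM + 1), where FPKM counts fragments per exon length and library depth, here scaled so that libraries share a 75th percentile, exactly or nearly. Differences are on that scale, are given as treated minus reference, and carry the SE of a limma fit. A gene "fell" or "rose" when its adjusted p (limma, Benjamini-Hochberg over all genes tested) was under 0.05, and it was "called" when its fold change also exceeded 1.5. In bulk RNA, fewer cells of a type and less RNA per cell cannot be told apart. Deposited microglial gene means over treatments were the same in all 4 replicates to within 6.67e-05, so average differences between replicates are absent. Non-overlap of microglial groups and SDs of their libraries may therefore look cleaner than separate replicates would. No share of all genes without overlap is given.

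The markers fitted the labels only in part. In DMSO microglia, C1qa was at 2961 FPKM and Csf1r at 928 FPKM, while the homeostatic markers P2ry12 and Tmem119 were at 4.27 and 9.04 FPKM. The 9 astrocyte markers summed to at most 22.2 FPKM in any microglial library, and were highest with T/5z and T/S/Z, whose ranges overlapped. In DMSO astrocytes Gfap was at 2005 FPKM, but the 12 microglial markers still summed to between 114 and 117 FPKM, and 5 fibroblast markers to between 603.6 and 618.2 FPKM. Sequencing depth is unknown for both cell types, since the files hold no counts and the spacing of low astrocyte values matched several whole multiples of the same depth.

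Promoter sequence is shown first because the element bound by TFEB is what links these genes in the textbook account. RefSeq promoters (GRCm38.p6, 250 bases before to 50 after the start site) were matched for 34 of the 41 genes. The letters CACGTG stood in 11 of the 34 (32.4%), against 8.09% of 27025 genes with a promoter, and the longer TCACGTGA in 6 (17.6%), against 1.12%. All of the words searched read the same on both strands, and the shorter ones lie within the longer. TCACGTGA with a G before it and a C after it was in 0 of the 34 and in 0.37% of all genes. The stretches that hold TCACGTGA are given below with the motif in capitals, from the V-ATPase genes Atp6v1a (chr16:44139368-44139407, minus strand), Atp6v0d1 (chr8:105566057-105566084, minus) and Atp6v0e (chr17:26676382-26676409, plus), the calcium channel gene Mcoln1 (chr8:3500457-3500496, plus), and the protease genes Ctsa (chr2:164833744-164833788, plus) and Ctsd (chr7:142387903-142387942, minus).
Atp6v1a: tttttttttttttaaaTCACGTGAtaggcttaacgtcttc
Atp6v0d1: ccaggccctactgcggTCACGTGAgacg
Atp6v0e: ggctttagcgcgccgaTCACGTGAgcct
Mcoln1: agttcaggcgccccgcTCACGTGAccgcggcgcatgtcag
Ctsa: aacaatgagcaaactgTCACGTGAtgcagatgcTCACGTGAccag
Ctsd: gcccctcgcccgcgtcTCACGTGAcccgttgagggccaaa
Lamp1, whose product is the most abundant glycoprotein of the lysosomal membrane, held 4 copies of CACGTG within 68 bases (chr8:13159092-13159159, plus strand), here in capitals.
Lamp1: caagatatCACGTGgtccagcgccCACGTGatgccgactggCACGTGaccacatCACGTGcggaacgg
These are matches of letters in a window and not measured binding sites.

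Under DMSO some lysosomal enzyme and cofactor genes were among the most abundant transcripts of microglia. Ctsd, an aspartyl protease, was at 7689 FPKM, the cysteine protease gene Ctsb at 4574 FPKM, and Psap, the precursor of the saposins that help lipid breakdown, at 4057 FPKM. Ctss, a protease gene of phagocytes, followed at 3882 FPKM, and Grn, which encodes progranulin, at 2202 FPKM. Other enzyme genes were far lower, among them Glb1 at 59.65, Neu1 at 53.62 and Gaa at 41.14 FPKM. Tfeb was the lowest member at 21.1 FPKM, next to Mcoln1 at 21.9 FPKM, and their order is not beyond the spread of the libraries (log2 SD 0.108 and 0.0229). Together the 41 genes took 7.05% to 7.32% of the summed FPKM of the DMSO libraries, of which the V-ATPase genes took 0.575% to 0.592%.

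In astrocytes the same genes took 1.07% to 1.17% of the summed FPKM under DMSO. Ctsd (778 FPKM), Psap (640 FPKM) and Ctsb (551 FPKM) led there too. The tables came from different providers and were normalized separately, so levels can only be set side by side. The astrocyte value of Ctss was 0.386% of the microglial one and that of Laptm5, a lysosomal membrane protein gene of blood cells and microglia, was 0.821%. The 12 microglial markers lay between 0.349% and 43.0% on that measure, with a median of 0.971%, and Ctss and Laptm5 were the 2 members at or below that median. At the other end Atp6v1e1, Atp6v0d1, Atp6v1d and Atp6v1h stood at 101%, 105%, 145% and 175% of their microglial values.

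**Figure D1:**
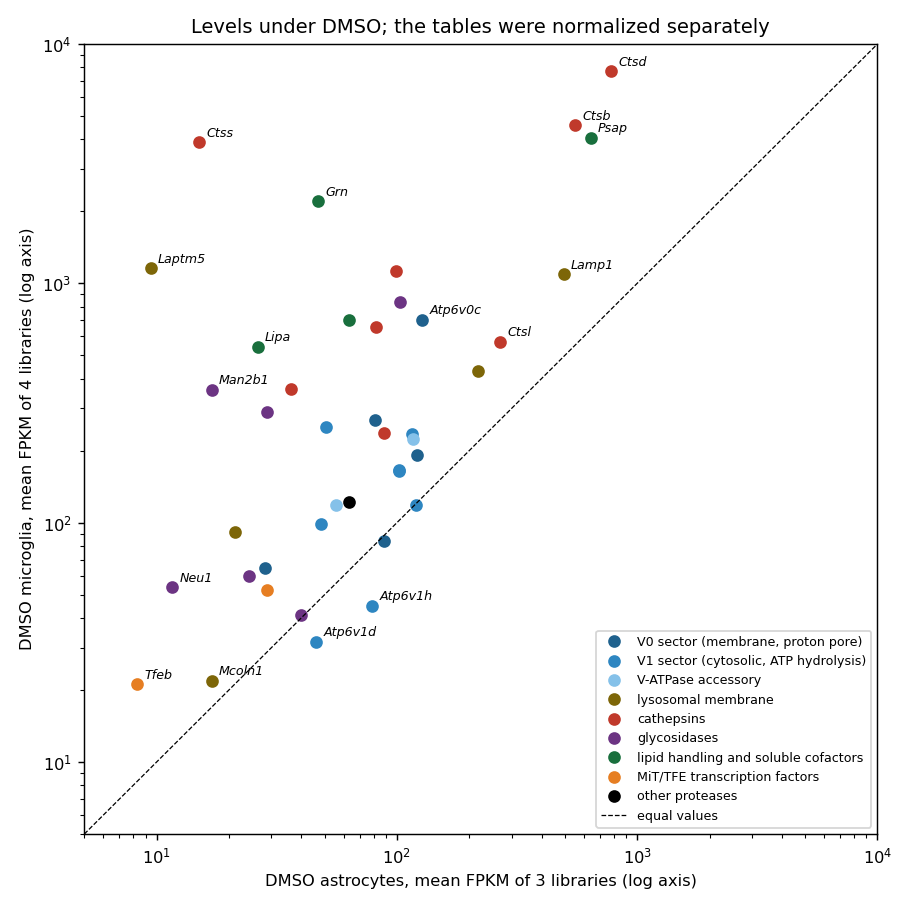
Mean FPKM of the 41 genes under DMSO in astrocytes (x, 3 libraries, log axis) and microglia (y, 4 libraries, log axis), coloured by role, with a dashed line of equal values. Ctss and Laptm5 lie farthest above the line and Atp6v1h (45.01 FPKM in microglia, 78.98 FPKM in astrocytes) lies below it.

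No member passed the test with Nec-1s alone. In microglia 0 of 41 genes passed the adjusted p, among 0% of all genes, with 0 members and 892 of all 10524 genes at an unadjusted p under 0.05, and the members' differences lay between -0.06 and 0.06. In astrocytes 0 members passed, against 0.0144% of all genes, and 3 members and 790 of all 13842 genes had an unadjusted p under 0.05.

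T/5z lowered most lysosomal enzyme genes of microglia by small amounts. By adjusted p, 28 of 41 members fell and 5 rose, against 36.8% and 27.4% of all genes, and the members' median difference was -0.30, against -0.06 over all genes. Among the 3984 tested genes at least as abundant as the lowest member, 30.2% fell and 37.0% rose. Few members changed by more than 1.5-fold. The 4 called were 3 lower and 1 higher, beside 13.3% and 11.1% of all genes, and without replicate 3 the number called was 7. Quantile normalization gave 10 lower and 0 higher. The share of summed FPKM held by the members was 5.08% to 5.60%, below every DMSO library. Under quantile normalization 34 members fell and 4 rose, and with each library centred on its median 27 fell and 8 rose. The 12 microglial markers summed to 10330 to 11890 FPKM after T/5z and 10380 to 11660 FPKM under DMSO, while the 9 astrocyte markers went from 7.17 to 9.14 FPKM under DMSO to 12.1 to 22.2 FPKM, and 5 fibroblast markers from 6.17 to 8.72 FPKM to 11.2 to 20.2 FPKM. Oligodendrocyte lineage markers summed to 49.99 to 52.42 FPKM under DMSO and 41.9 to 45.2 FPKM after T/5z, and endothelial and mural markers to 6.11 to 7.20 FPKM and 4.55 to 5.33 FPKM. Of the tested markers, 4 of 6 astrocyte and 4 of 4 fibroblast genes were called higher. Of the 12 microglial markers 1 was called higher and 2 lower, with 3 up and 5 down by adjusted p. The part of other cells in the members' changes was not tested.

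The falls lay mostly in glycosidases, membrane proteins, lipid handling and cofactors, while the cathepsins were divided. All 6 glycosidases (Hexa, Gaa, Glb1, Gusb, Neu1 and Man2b1) fell, with differences of -0.53 to -0.34, as did the 4 genes of lipid handling and cofactors, all 5 membrane protein genes and Tpp1. Of the 8 cathepsins 4 fell (Ctsa, Ctsb, Ctsd and Ctsl) and 2 rose (Ctsc and Ctsz). Ctsd stood at 12.86, 12.86, 12.91 and 13.00 in the DMSO libraries and at 12.30, 12.21, 12.39 and 12.40 after T/5z, a difference of -0.58 ± 0.05 (SE, adjusted p = 6.56e-05). The groups did not overlap. Grn changed by -0.55 ± 0.05 (adjusted p = 9.84e-05), Ctsl by -0.48 ± 0.05 (adjusted p = 0.000178), Gusb by -0.46 ± 0.05 (adjusted p = 0.000154) and Ctsb by -0.31 ± 0.05 (adjusted p = 0.00139).

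The largest falls were in Tfeb, Npc1 and Atp6v0a1. Tfeb (chr17:47737030-47792419), the regulator itself, read 4.60, 4.45, 4.33 and 4.47 under DMSO and 3.31, 3.51, 3.70 and 3.55 after T/5z, a difference of -0.95 ± 0.10 (adjusted p = 0.000175). Npc1, which exports cholesterol from the lysosome, read 6.58, 6.51, 6.50 and 6.56 against 5.56, 5.54, 5.66 and 5.59, a difference of -0.95 ± 0.05 (adjusted p = 5.62e-06). Atp6v0a1 (chr11:101009452-101063719), the a1 subunit of the V0 sector, read 6.00, 5.95, 6.11 and 6.09 against 5.07, 5.03, 5.19 and 5.17, a difference of -0.92 ± 0.04 (adjusted p = 3.64e-06). For each of the 3 genes every T/5z library lay below every DMSO library, and each kept its call under every alternative tried.

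A few members went the other way. Ctsc (chr7:88278085-88310888), which encodes the protease that activates granule serine proteases, was at 8.43, 8.37, 8.74 and 8.45 under DMSO and at 9.13, 9.14, 9.09 and 9.15 after T/5z, a difference of 0.63 ± 0.07 (adjusted p = 0.000302). It fell short of the fold limit under quantile normalization. Atp6v0b (0.40 ± 0.04), Atp6v1e1 (0.43 ± 0.04), Atp6v1h (0.37 ± 0.06) and Ctsz (0.16 ± 0.05) also rose by adjusted p. The V1 sector was split, with 2 of 8 genes up, 3 down (Atp6v1a, Atp6v1c1 and Atp6v1d) and a median of -0.02, which was 0.05 with median centring and -0.28 under quantile normalization. The members that did not pass were Atp6v0c, Atp6v0e, Atp6v1b2, Atp6v1f, Atp6v1g1, Ctsh, Ctss and Tfe3, with differences between -0.12 and 0.13. Ctsh, an aminopeptidase gene, passed in none of the 13 comparisons.

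**Figure D2:**
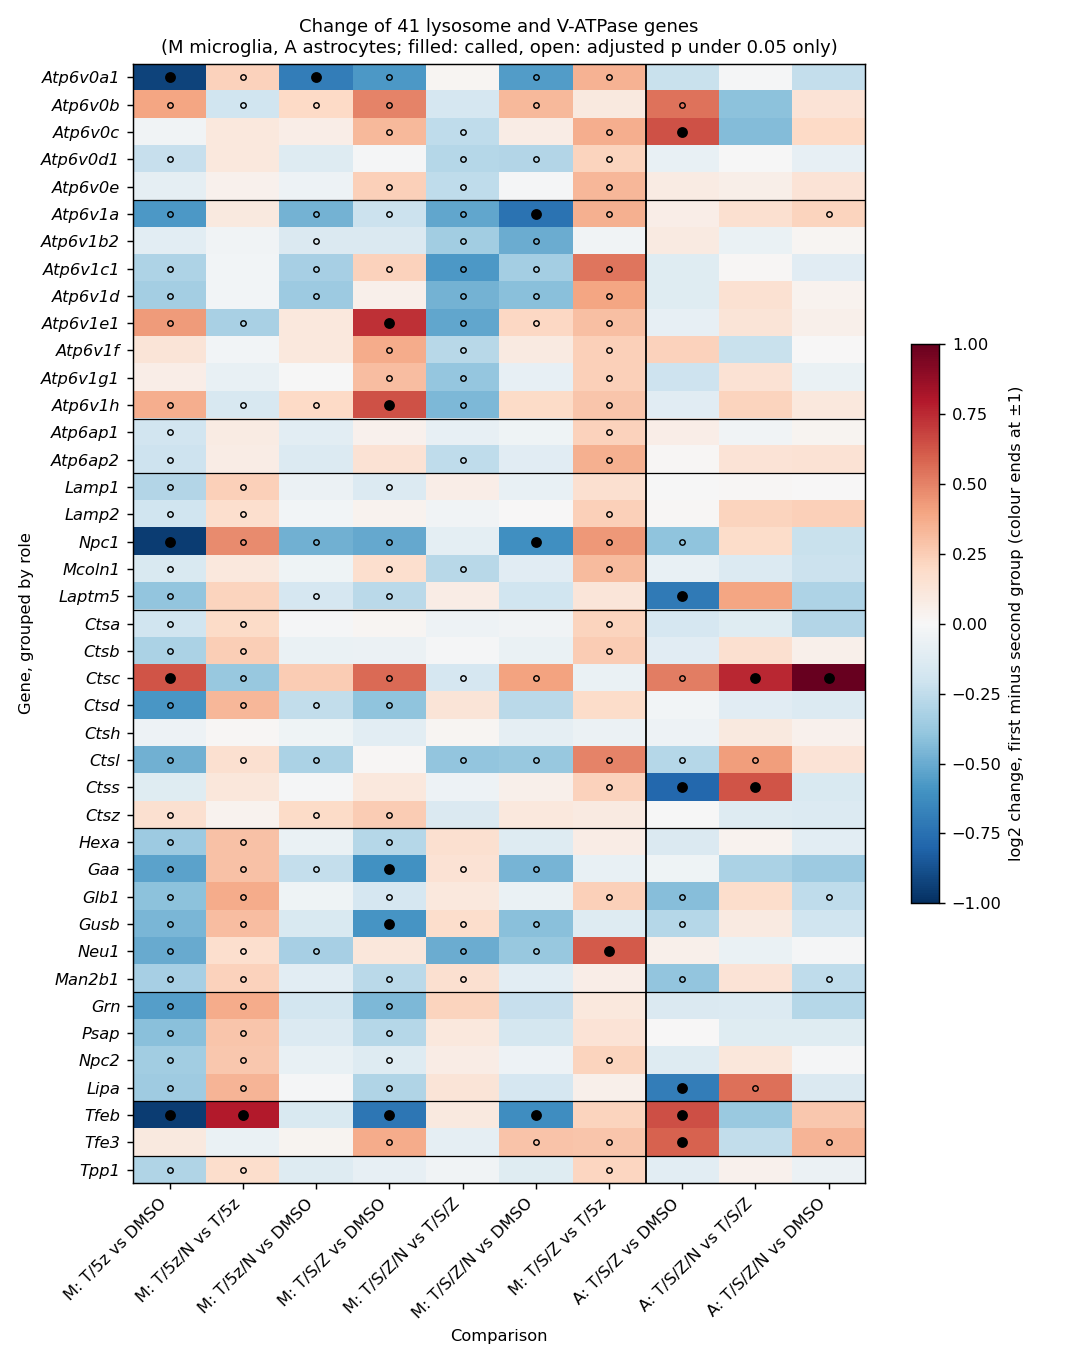
Log2 change of each of the 41 genes (rows, grouped by role) in 7 microglial and 3 astrocyte comparisons (columns), with red for higher and blue for lower in the first group. Filled circles mark genes called (fold change over 1.5 and adjusted p under 0.05) and open circles adjusted p alone. The T/5z column is mostly blue and the column of T/5z/N against T/5z mostly red below the V-ATPase rows.

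Adding Nec-1s to T/5z raised genes of the enzyme, cofactor and membrane protein classes. Against T/5z alone, 20 members rose and 4 fell by adjusted p, beside 27.3% and 21.1% of all genes, and the members' median difference was 0.16, against 0.04 over all genes. Among genes at least as abundant as the lowest member 25.2% rose and 27.9% fell. The count of 20 went to 28 under quantile normalization, to 15 with median centring, to 13 without replicate 1, to 11 without replicate 2 and to 8 without moderation of the variance. By class, all 6 glycosidases rose (0.17 to 0.37), as did all 4 genes of lipid handling and cofactors (0.27 to 0.37), 4 of 8 cathepsins, 3 of 5 membrane protein genes and Tpp1. Ctsd changed by 0.33 ± 0.08 (adjusted p = 0.00768) and Grn by 0.37 ± 0.08 (adjusted p = 0.00487). With Nec-1s added the astrocyte markers summed to 8.15 to 8.95 FPKM and the fibroblast markers to 6.92 to 8.75 FPKM, and by adjusted p 4 of 6 and 4 of 4 fell. The oligodendrocyte lineage sum was 45.4 to 48.5 FPKM and that of endothelial and mural markers 3.24 to 3.93 FPKM. Their part in these changes was not tested.

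Tfeb was the 1 member called in this comparison, beside 2.64% of all genes called higher and 4.52% called lower. It stood at 4.29, 4.42, 4.44 and 4.10 in the T/5z/N libraries, all above the T/5z libraries, a difference of 0.80 ± 0.07 (adjusted p = 7.56e-05). Against DMSO, T/5z/N differed in Tfeb by -0.15, which did not pass the test. Npc1 rose by 0.47 ± 0.04 (adjusted p = 4.63e-05), to 6.05, 6.04, 6.15 and 5.99, which remained below every DMSO library. Ctsc fell by 0.38 on the log2 scale (adjusted p = 0.000542) and Atp6v1e1 by 0.32 (adjusted p = 0.000324). Of the 8 V1 genes 0 rose and 2 fell.

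Some members differed from DMSO with T/5z and Nec-1s together. In T/5z/N against DMSO 11 members fell and 3 rose, beside 22.3% and 18.2% of all genes, with 25 and 0 under quantile normalization. Without replicate 1, as without replicate 2, 8 fell and 0 rose. Among genes at least as abundant as the lowest member 19.9% fell and 27.5% rose. Atp6v0a1 was the 1 member called, beside 6.69% of all genes called lower and 6.16% called higher. Its values of 5.37, 5.41, 5.37 and 5.22 lay below the DMSO range, a difference of -0.69 ± 0.06 (adjusted p = 6.32e-05). Atp6v1a (-0.47 ± 0.05), Npc1 (-0.48 ± 0.05), Atp6v1d (-0.36 ± 0.05) and Atp6v1c1 (-0.34 ± 0.05) fell without a call. This comparison shares its T/5z/N and DMSO libraries with those above, so the 3 are not independent.

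T/S/Z gave a mixed picture whose balance depended on the scaling. With the deposited scaling 12 members rose and 16 fell by adjusted p, beside 30.3% and 41.1% of all genes, and the members' median was -0.01, against -0.08 over all genes. Under quantile normalization 3 rose and 28 fell, and with median centring 16 rose and 11 fell. Of the 3984 tested genes at least as abundant as the lowest member, 44.2% rose and 29.1% fell. The call counts were 2 higher and 3 lower, beside 12.2% and 17.5% of all genes. Quantile normalization gave 0 higher and 13 lower, and the balance turned to 4 higher and 1 lower with median centring and to 3 higher and 2 lower without replicate 3. With 5 added before the log it was 2 higher and 0 lower, and without replicate 4 it was 1 and 1. The share of summed FPKM held by the members was 5.30% to 5.57%, below every DMSO library. That of the V-ATPase genes was 0.552% to 0.580%. Such a share follows the most abundant members and the library's total, so it does not show how many members fell. The 9 astrocyte markers summed to 13.7 to 19.9 FPKM after T/S/Z, above every DMSO library, and the 5 fibroblast markers to 5.08 to 8.12 FPKM. Oligodendrocyte lineage markers (35.9 to 39.3 FPKM) and endothelial and mural markers (2.66 to 3.28 FPKM) lay below every DMSO library. Their part in the members' changes was not tested.

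Classes differed in their counts. By the deposited scaling 5 of 8 V1 genes and 3 of 5 V0 genes rose and 1 of each fell, whereas 5 of 6 glycosidases and all 4 genes of lipid handling and cofactors fell and none rose. Of the 8 cathepsins 2 rose and 1 fell, with a median of 0.01, of the 5 membrane protein genes 1 rose and 3 fell, and Tpp1 and both accessory genes did not pass. Under quantile normalization the V1 count changed to 2 up and 3 down, so a rise of the sector as a whole was not shown. Median differences were 0.27 for V1 and -0.13 for the 26 members outside the V-ATPase with the deposited values, -0.09 and -0.48 with quantile normalization, and 0.37 and -0.03 with median centring. The V1 median lay above that of the 26 under each scaling, but its sign was not the same.

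Atp6v1e1 (chr6:120795244-120822793), a stalk subunit, was at 6.90, 6.90, 6.93 and 6.88 under DMSO and at 7.51, 7.53, 7.66 and 7.82 after T/S/Z, a difference of 0.73 ± 0.06 (adjusted p = 3.31e-05). Atp6v1h (chr1:5070018-5162529), the regulatory H subunit, was at 5.50, 5.57, 5.63 and 5.39 against 6.14, 6.11, 6.09 and 6.31, a difference of 0.64 ± 0.08 (adjusted p = 0.000183). The groups did not overlap for either gene. Both lost the call under quantile normalization (0.29 and 0.44), and Atp6v1h also without replicate 4, at 0.55. Atp6v1h lies across from Rgs20, and Atp6v1e1 from Slc25a18, on the opposite strand in GENCODE M21. Over the 6 microglial group means the genes most like Atp6v1e1 were Arhgdia, Tug1 and 1810013L24Rik, each with Pearson r of 0.998 or above.

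Tfeb fell with T/S/Z too, to 3.72, 3.64, 3.64 and 3.97, a difference of -0.72 ± 0.07 (adjusted p = 7.66e-05), which stopped just short of the fold limit with 5 added before the log. Tfe3, its relative, rose by 0.37 ± 0.05 (adjusted p = 0.000387). Gaa, which encodes the lysosomal alpha-glucosidase, changed by -0.61 ± 0.07 (adjusted p = 0.000153), from 5.37, 5.31, 5.37 and 5.53 to 4.81, 4.83, 4.84 and 4.68. Gusb, the beta-glucuronidase gene, changed by -0.59 ± 0.05 (adjusted p = 3.17e-05), from 8.18, 8.11, 8.19 and 8.27 to 7.54, 7.67, 7.58 and 7.62. Neither gene's groups overlapped. Gaa and Gusb were near the fold limit and lost their calls without replicate 4, with median centring and with 5 added before the log, and Gusb also without replicate 1 or without replicate 3. Without replicate 4 the number of members called fell from 5 to 2.

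Nec-1s added to T/S/Z lowered the V1 sector. All 8 V1 genes fell by adjusted p, with differences of -0.28 to -0.57 and a median of -0.46, while 23.8% of all genes fell and the median over all genes was 0.06. No member was called, beside 6.72% of all genes called lower and 5.35% called higher. With median centring 3 members were called lower, and 1 without replicate 1 or without replicate 2. An unadjusted limma p under 0.05 was found for 21 members and for 6604 of all 10524 genes. The V1 count was 8 under median centring, 6 under quantile normalization (median -0.26), 7 without moderation of the variance, and 8 in each fit that left out 1 replicate. Over the whole family 16 members fell and 3 rose (34.1% of all genes rose), but this balance turned under quantile normalization, with 8 down and 20 up, and the 3 rises were 0 without replicate 1 or without replicate 2. Among genes at least as abundant as the lowest member 32.2% fell and 25.2% rose. The 9 astrocyte markers moved the same way, to 4.88 to 6.03 FPKM after T/S/Z/N, and by adjusted p 5 of 6 tested fell. The 5 fibroblast markers summed to 3.57 to 5.58 FPKM, with 3 of 4 lower by adjusted p. The oligodendrocyte lineage sum was 44.1 to 46.5 FPKM, above every T/S/Z library, and that of endothelial and mural markers 2.97 to 3.43 FPKM. The 12 microglial markers summed to 10260 to 12470 FPKM after T/S/Z/N and 10480 to 11390 FPKM after T/S/Z. The part of other cells in the fall of the V1 genes was not tested.

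Atp6v1c1, the C subunit that joins the stalks, had the largest of these falls. It stood at 6.81, 6.83, 6.79 and 7.06 after T/S/Z and at 6.35, 6.41, 6.21 and 6.23 after T/S/Z/N, a difference of -0.57 ± 0.07 (adjusted p = 0.000341). Atp6v1a (chr16:44085402-44139305), the catalytic A subunit, stood at 7.69, 7.69, 7.79 and 7.88 against 7.34, 7.29, 7.19 and 7.14, a difference of -0.52 ± 0.07 (adjusted p = 0.000576). Atp6v1e1 changed by -0.52 ± 0.07 (adjusted p = 0.000609) and Atp6v1h by -0.45 ± 0.05 (adjusted p = 0.000252). In these 4 genes every T/S/Z/N library lay below every T/S/Z library. Atp6v1b2, which encodes the other catalytic-ring subunit, changed by -0.35 ± 0.06 (adjusted p = 0.00171).

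Other members that fell were Atp6v0c, Atp6v0d1, Atp6v0e, Atp6ap2, Mcoln1, Ctsc, Ctsl and Neu1. Neu1 (chr17:34931253-34935921), the lysosomal sialidase gene, went from 5.85, 5.85, 5.88 and 5.96 to 5.46, 5.46, 5.34 and 5.29, a difference of -0.50 ± 0.06 (adjusted p = 0.000288). Ctsl changed by -0.39 ± 0.10 (adjusted p = 0.0115). Gaa, Gusb and Man2b1 rose, by 0.14 to 0.17. Tfeb, at 3.75, 3.84, 3.85 and 3.93, differed from T/S/Z by 0.10 ± 0.06 (adjusted p = 0.182).

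**Figure D3:**
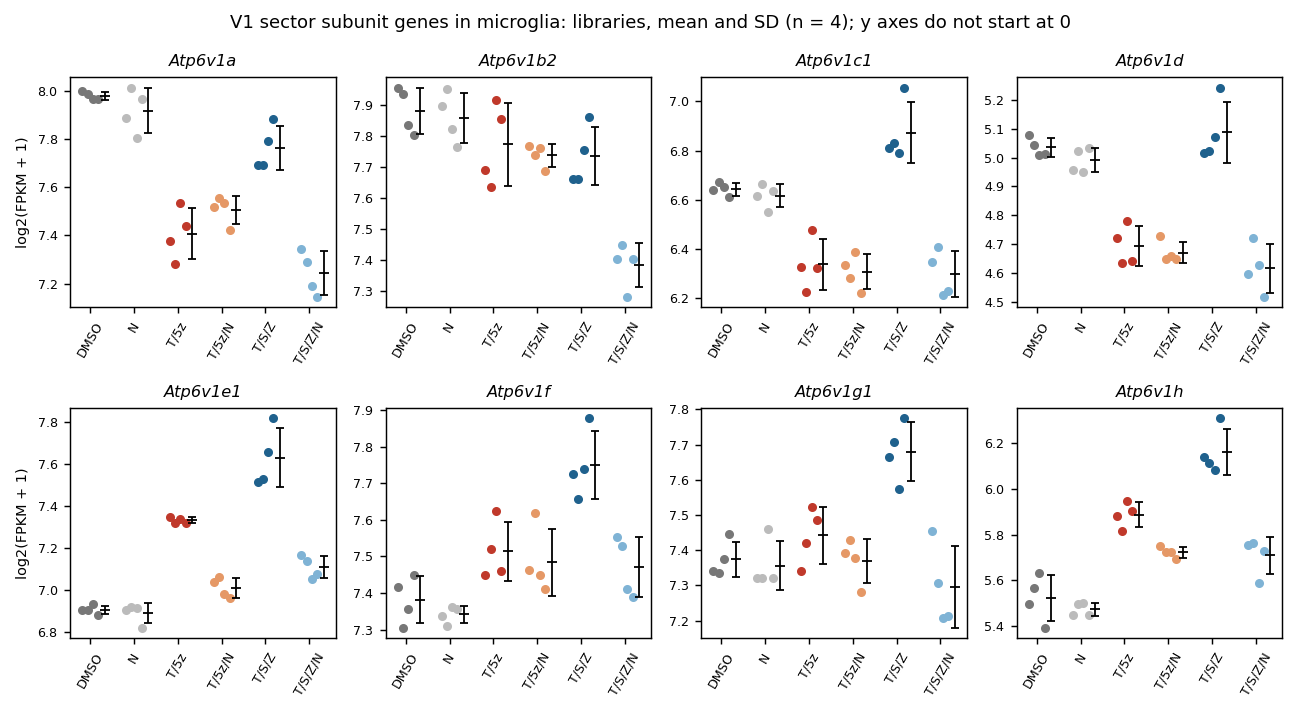
Log2(FPKM + 1) of the 8 V1 subunit genes in each microglial library (points) by treatment, with mean and SD (bars, n = 4). In each panel the T/S/Z/N mean lies below the T/S/Z mean, and in Atp6v1a all 4 T/S/Z/N libraries (7.14 to 7.34) lie below the DMSO libraries (7.97 to 8.00).

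Some of these values ended below the vehicle. In T/S/Z/N against DMSO 12 members fell and 4 rose, beside 25.7% and 20.3% of all genes, and 27 fell and 3 rose under quantile normalization. The 4 rises were 2 without replicate 1 and 1 without replicate 2. Among genes at least as abundant as the lowest member 19.5% fell and 29.6% rose. Called lower were Atp6v1a (-0.74 ± 0.06, adjusted p = 3.97e-05), Tfeb (-0.62 ± 0.07, adjusted p = 0.000345) and Npc1 (-0.61 ± 0.06, adjusted p = 0.000118), beside 7.87% of all genes called lower and 6.2% called higher. Tfeb lost the call without replicate 1 and Npc1 without replicate 4, and both lost it with 5 added before the log. Atp6v1b2 (-0.50 ± 0.06), Atp6v1d (-0.42 ± 0.06) and Atp6v1c1 (-0.34 ± 0.06) also fell, while Atp6v1e1 rose by 0.20 ± 0.05.

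The 2 stimuli were then compared directly, in the same 4 replicates. T/S/Z libraries were higher than T/5z libraries in 25 members and lower in 0 by adjusted p, beside 18.7% and 21.4% of all genes, with a members' median of 0.23 against -0.03. Among genes at least as abundant as the lowest member the shares were 28.5% and 18.5%. The count went to 14 without replicate 1, and under quantile normalization it was 12 higher and 8 lower. By class 7 of 8 V1 genes, 4 of 5 V0 genes and both accessory genes were higher, as were 4 of 8 cathepsins, 3 of 5 membrane protein genes, Tpp1, Tfe3, 2 of 6 glycosidases and 1 of 4 genes of lipid handling and cofactors. Neu1 was the 1 member called, at 0.62 ± 0.05 (adjusted p = 0.000185), beside 5.42% of all genes called higher and 4.42% called lower, with 2 called without replicate 3. It read 5.28, 5.25, 5.34 and 5.20 after T/5z and 5.70 to 5.85 under DMSO. Without replicate 4, and under quantile normalization, Neu1 lost the call, at 0.57 and 0.53.

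Whether Nec-1s acted differently after the 2 stimuli was tested as an interaction, the effect after T/5z minus the effect after T/S/Z. By adjusted p it was positive in 16 members and negative in 1 (Ctsc), beside 11.1% and 14.8% of all genes. The 16 included 6 of 8 V1 genes, and the count went to 10 without replicate 2 or without replicate 4. The negative count was 0 with median centring and in each fit that left out 1 replicate, and 3 under quantile normalization. Called were Tfeb (0.70 ± 0.13, adjusted p = 0.00143), Neu1 (0.66 ± 0.07, adjusted p = 1.45e-05) and Atp6v1a (0.62 ± 0.09, adjusted p = 0.000246), beside 3.77% of all genes called positive and 2.7% called negative, and without replicate 1 the number called went from 3 to 5. For Tfeb Nec-1s made a difference of 0.80 on the T/5z background, and of 0.10 on the T/S/Z background. For Neu1 it was 0.17 and -0.50, and for Atp6v1a 0.10 and -0.52. Atp6v1a lost the call under quantile normalization, at 0.49, and Tfeb with 5 added before the log, at 0.55. Npc1 (0.57 ± 0.07, adjusted p = 8.55e-05) and Ctsl (0.55 ± 0.12, adjusted p = 0.00361) passed by adjusted p alone.

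**Figure D4:**
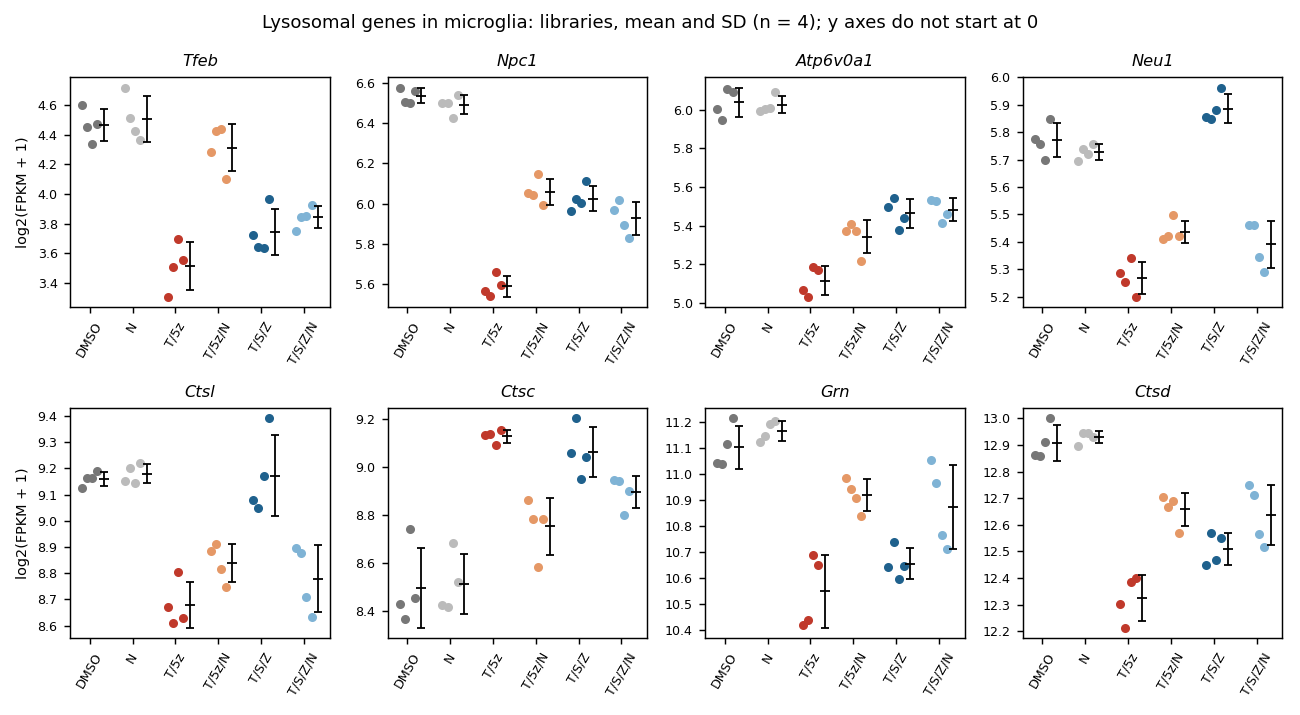
Log2(FPKM + 1) of Tfeb, Npc1, Atp6v0a1, Neu1, Ctsl, Ctsc, Grn and Ctsd in each microglial library (points) by treatment, with mean and SD (bars, n = 4). Tfeb returned to 4.10 to 4.44 in T/5z/N but lay at 3.75 to 3.93 in T/S/Z/N, and Neu1 was low (5.20 to 5.34) after T/5z and at 5.85 to 5.96 after T/S/Z.

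The genes that hold TCACGTGA did not share 1 pattern. Of the 6, Ctsa, Ctsd, Mcoln1, Atp6v0d1 and Atp6v1a fell with T/5z and Atp6v0e (-0.09, adjusted p = 0.128) did not pass the test. With T/S/Z, Mcoln1 and Atp6v0e rose by 0.16 and 0.24, Ctsd and Atp6v1a fell by 0.40 and 0.22 on the log2 scale, and Ctsa (0.02) and Atp6v0d1 (-0.01) did not pass. Lamp1, with its 4 shorter words, fell by 0.29 with T/5z and rose by 0.24 when Nec-1s was added.

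In astrocytes neither the members' rises nor their falls with T/S/Z, by adjusted p over all 3 replicates, stood above the share of all genes. By adjusted p 5 rose and 8 fell, beside 13.5% and 26.9% of all genes, and the members' median was -0.07, against -0.11 over all genes. Without replicate 1 the counts were 3 and 4, beside 5.71% and 7.33% of all genes, and without moderation of the variance 1 and 1. Called were 3 higher (6.39% of all genes) and 3 lower (8.99% of all genes). The members' share of summed FPKM was 1.04% to 1.17%, against 1.07% to 1.17% under DMSO. Of the V1 genes 0 of 8 passed the test, with differences between -0.21 and 0.23, and under quantile normalization 1 of 8 fell.

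Tfeb and Tfe3 were both higher. Tfeb was at 3.40, 3.16 and 3.06 under DMSO and at 3.96, 3.92 and 3.67 after T/S/Z, a difference of 0.64 ± 0.09 (adjusted p = 0.00152). Tfe3 went from 4.94, 4.87 and 4.90 to 5.67, 5.42 and 5.38, a difference of 0.59 ± 0.08 (adjusted p = 0.00147). Atp6v0c, the proteolipid that forms the proton ring, went from 7.14, 6.90 and 6.97 to 8.01, 7.69 and 7.24, a difference of 0.64 ± 0.12 (adjusted p = 0.00608), with 3 widely spread T/S/Z libraries. Groups did not overlap for these genes. Tfeb lost the call without replicate 2, Tfe3 without replicate 1 and Atp6v0c without either. Tfeb and Tfe3 also lost it with 5 added before the log, Tfe3 under quantile normalization, and all 3 genes without moderation of the variance.

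The 3 genes called lower were Ctss, Laptm5 and Lipa, the lysosomal acid lipase gene. Ctss (chr3:95526786-95556403) was at 4.04, 3.96 and 4.00 under DMSO, at 3.22, 3.20 and 3.24 after T/S/Z (-0.78 ± 0.08, adjusted p = 0.000452), and at 3.76, 3.81 and 3.95 after T/S/Z/N. Laptm5 (chr4:130913125-130936141) changed by -0.71 ± 0.09 (adjusted p = 0.0011), from 3.41, 3.57 and 3.15 to 2.76, 2.88 and 2.38. Lipa (chr19:34492318-34527474) changed by -0.70 ± 0.08 (adjusted p = 0.000547), from 4.73, 4.73 and 4.86 to 4.06, 4.08 and 4.09. Laptm5 lost the call with 5 added before the log, and both Laptm5 and Lipa lost it without moderation of the variance. Microglial markers moved the same way in these libraries. The 12 markers summed to 114 to 117 FPKM under DMSO, 68.5 to 70.5 FPKM after T/S/Z and 98.0 to 105 FPKM after T/S/Z/N. Of the 11 tested, 8 were called lower with T/S/Z, among them Trem2 (-0.91), C1qa (-0.68) and Csf1r (-0.61), and none was at 0 in DMSO. The 5 fibroblast markers summed to 110 to 122 FPKM after T/S/Z and 485 to 488 FPKM after T/S/Z/N. Oligodendrocyte lineage markers summed to 179 to 205 FPKM under DMSO, 115 to 151 FPKM after T/S/Z and 124 to 132 FPKM after T/S/Z/N, and endothelial and mural markers to 10.8 to 12.3, 6.07 to 7.27 and 9.12 to 10.9 FPKM. The part of any of these cell types in the members' changes was not tested.

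With Nec-1s added, 4 members rose and 0 fell, beside 4.05% and 3.77% of all genes. The counts rested on single libraries, with 2 up and 0 down without replicate 1, 1 and 0 without replicate 2, and 4 and 4 without replicate 3 (12.7% and 11.9% of all genes). Ctsc went from 5.63, 5.69 and 5.88 to 6.48, 6.41 and 6.57, a difference of 0.75 ± 0.08 (adjusted p = 0.00334). Ctss rose by 0.63 ± 0.09 (adjusted p = 0.0107), Lipa by 0.55 ± 0.08 (adjusted p = 0.0129) and Ctsl by 0.42 ± 0.08 (adjusted p = 0.0299). Ctsc and Ctss were called, beside 1.51% of all genes called higher and 1.59% called lower, and Ctss lost the call without replicate 2 or 3. In T/S/Z/N against DMSO, Ctsc was the 1 member called, at 1.27 ± 0.07 (adjusted p = 0.000112), beside 4.36% of all genes called higher and 4.72% called lower. By adjusted p 3 members rose and 2 fell there, beside 9.78% and 17.2% of all genes, with 1 and 0 without replicate 2, 2 and 0 without replicate 3, and 3 and 1 without replicate 1. Its DMSO values were 5.11, 5.21 and 5.35, so it climbed from DMSO to T/S/Z to T/S/Z/N with no overlap between groups.

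**Figure D5:**
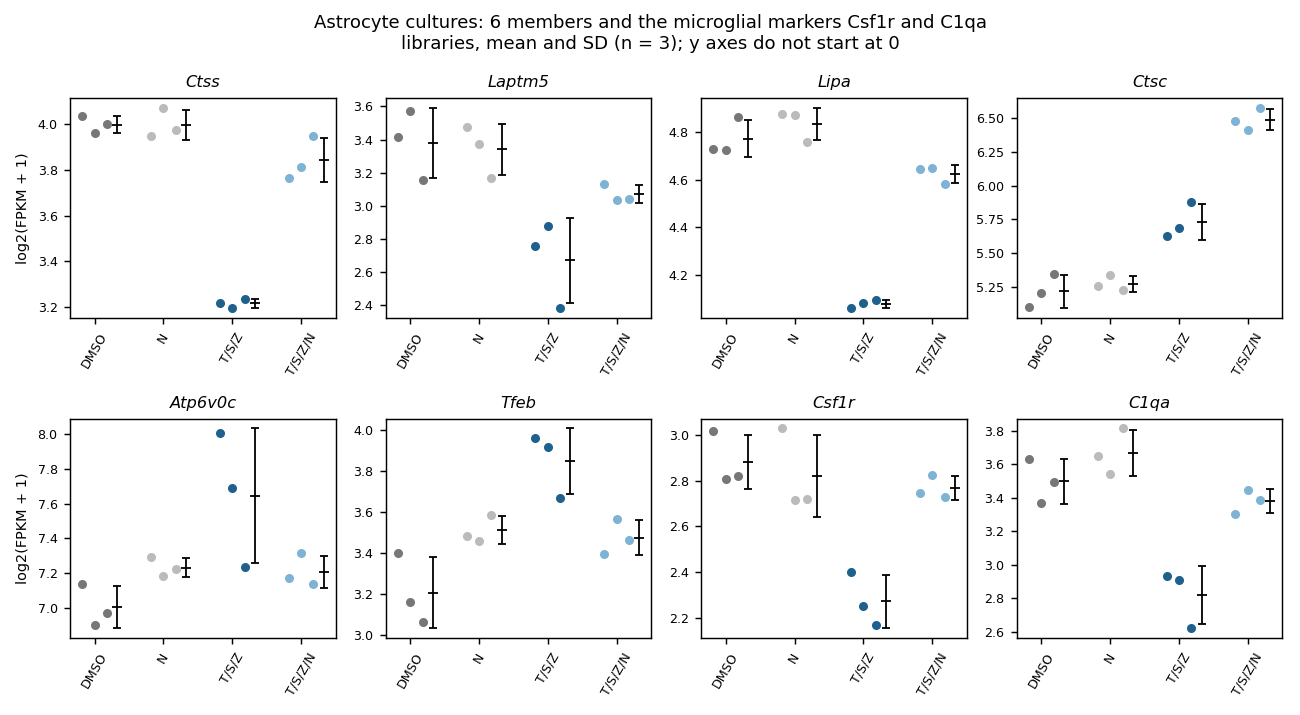
Log2(FPKM + 1) of 6 members and of the microglial markers Csf1r and C1qa in each astrocyte library (points) by treatment, with mean and SD (bars, n = 3). Ctss, Laptm5, Lipa, Csf1r and C1qa were all lowest after T/S/Z, and Ctsc was highest after T/S/Z/N (6.41 to 6.57).

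By adjusted p, 28 members changed with T/S/Z in microglia and 13 in astrocytes. The lists had 10 genes with the same direction, which is 35.7% of the microglial and 76.9% of the astrocyte list. Over the 9912 genes tested in both tables, 7084 changed in microglia and 3757 in astrocytes, and the 2253 with the same direction were 31.8% and 60% of those lists. Of these, Atp6v0b, Atp6v0c, Ctsc and Tfe3 rose in both, and Glb1, Gusb, Npc1, Lipa, Man2b1 and Laptm5 fell in both. Tfeb went in opposite directions, with -0.72 in microglia and 0.64 in astrocytes. The difference between the cell types was not tested, as the tables were made separately.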

How the data were processed

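The deposited values are log2(FPKM + 1), which the authors obtained with OmicSoft Array Studio. In the files the 75th percentile is common to the astrocyte libraries (4.734 to 4.736) and to the replicate 4 libraries of microglia (4.144), and runs from 4.114 to 4.159 in the shifted replicates 1 to 3. Gene coordinates were those of GRCm38 in the deposited annotation. Libraries of microglia and astrocytes were made by different providers, strand-specifically in astrocytes. For microglia no such protocol is given in the sources used here, and 13 members have an overlapping gene on the opposite strand in GENCODE M21, whose reads may not be separable. In microglia the deposited gene means of replicates 1 to 3 equalled those of replicate 4 within 6.67e-05, a shift that the study's methods do not describe. It left 187 to 1438 negative values per library in those replicates, and p-values without the replicate block may be too small. Overlap between microglial groups and the SDs of their libraries may also be too small.

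Genes with log2 values of at least 1 in at least 4 microglial or 3 astrocyte libraries were tested with limma 3.58.1 in R 4.3.3 (lmFit, eBayes with trend), on the compared groups only, and replicate numbers entered as a block, since the study ran paired comparisons. Tests were 2-sided and Benjamini-Hochberg adjusted. Same-numbered astrocyte libraries had deviations correlated at -0.144 to 0.411, so the numbers were not shown to pair them, and in microglia the shift voids that check. The procedure was tested on simulated data. Depth could not be recovered from the deposited values, so the precision is given by the spread between replicates.

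The members and lists were chosen with earlier results of these data known. Named with statistics were up to 6 members called higher and 6 called lower in each comparison, by size, that moved the same way in every pair, and any of a fixed set of 26 members. Others were named to complete a class or count, after their values were seen. Alternatives are described at the end.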

Additional observations from a re-analysis of the deposited data

Results flagged for a closer look

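Among 246 groups of 4 microglial libraries (41 genes in 6 treatments) 12 had 1 library far from the others by Dixon's ratio, and chance flags about 1 in 20 such groups. Of these, 6 were in the Nec-1s group, where the outlying values were 6.09 for Atp6v0a1, 6.82 for Atp6v1e1, 7.46 for Atp6v1g1, 8.73 for Lamp2, 10.21 for Ctsz and 9.68 for Hexa. After T/S/Z, 1 library was high in Atp6v0d1 (6.54) and in Atp6v1c1 (7.06). After T/5z/N 1 library was high in Atp6v1d (4.73) and in Neu1 (5.50). Mcoln1 had 1 low value under DMSO (4.48) and Tfe3 after T/5z (5.79).

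Differences between the stimuli passed their own test for Neu1 with T/S/Z against T/5z (0.62), and, for the effect of Nec-1s after T/5z minus that after T/S/Z, for Tfeb (0.70), Neu1 (0.66) and Atp6v1a (0.62).

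In some members the difference had 1 sign in every same-numbered pair of microglial libraries and the opposite sign in every such pair of astrocyte libraries. The difference between cell types was not tested, the numbers were not shown to pair astrocyte libraries, and 24 to 27 of the 41 members had 1 sign in all 3 astrocyte pairs in these comparisons. No share over all genes is given for these counts, so an excess over other genes is not shown. Of the astrocyte values that follow, Tfeb with T/S/Z, Ctsc and Ctsl with Nec-1s added, and Atp6v1a in T/S/Z/N against DMSO passed the test by adjusted p (limma), and the others did not. With T/S/Z these were Atp6v1c1 (0.23 in microglia, -0.12 in astrocytes), Atp6v1g1 (0.31 and -0.21), Atp6v1h (0.64 and -0.11) and Tfeb (-0.72 and 0.64). With Nec-1s added to T/S/Z these were Atp6v1a (-0.52 and 0.16), Atp6v1e1 (-0.52 and 0.13), Atp6v1g1 (-0.38 and 0.14), Atp6v1h (-0.45 and 0.22), Atp6ap2 (-0.26 and 0.13), Ctsc (-0.17 and 0.75), Ctsl (-0.39 and 0.42) and Gaa (0.14 and -0.32). With T/S/Z/N against DMSO these were Atp6v1a (-0.74 and 0.22) and Ctsl (-0.38 and 0.14).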

How the results depend on the processing

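None of the called members' values changed sign under the alternatives run. The balance of members called with T/S/Z in microglia was 2 higher and 3 lower. It turned to 4 and 1 with median centring, to 3 and 2 without replicate 3 and to 2 and 0 with 5 added before the log. Without replicate 4 it was 1 and 1. The alternatives were no replicate block, 5 added before the log, no filter, quantile normalization, median centring, no moderation of the variance, no fold minimum, and each replicate left out. The fit without the replicate block gave the same number of called members in every comparison (in microglia 4 for T/5z, 5 for T/S/Z) and changed no other call. By adjusted p alone it moved some counts by over 1.5 times, from 3 to 5 members higher and 11 to 19 lower with T/5z/N against DMSO, from 2 to 4 lower with astrocyte T/S/Z/N against DMSO, from 0 to 1 lower with T/S/Z against T/5z, and from 1 to 0 negative in the interaction. Whether same-numbered samples correlate best with each other was not informative in microglia, because of the shift between replicates. The numbers of members called, in the order T/5z, T/S/Z, T/5z/N against T/5z, T/S/Z/N against T/S/Z, T/5z/N against DMSO, T/S/Z/N against DMSO, T/S/Z against T/5z and interaction in microglia, were 4, 5, 1, 0, 1, 3, 1 and 3, and with no fold minimum 33, 28, 24, 19, 14, 16, 25 and 17. In astrocytes the numbers with T/S/Z, T/S/Z/N against T/S/Z and T/S/Z/N against DMSO were 6, 2 and 1, and with no fold minimum 13, 4 and 5. Quantile normalization gave 10 with T/5z, 13 with T/S/Z, 2 with T/5z/N against DMSO, 5 with T/S/Z/N against DMSO and 0 with T/S/Z against T/5z. Median centring gave 3 with T/S/Z/N against T/S/Z. With 5 added, T/S/Z gave 2, T/S/Z/N against DMSO 1, T/S/Z against T/5z 0, astrocyte T/S/Z 3 and astrocyte T/S/Z/N against T/S/Z 1. Without moderation the astrocyte numbers were 1, 0 and 0.

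By adjusted p alone, chosen after the data were seen, quantile normalization gave 3 higher and 28 lower with T/S/Z, 8 lower with Nec-1s added to T/S/Z and 12 higher with T/S/Z against T/5z. Without moderation the counts were 8 higher for T/5z/N against T/5z, 9 lower for T/S/Z/N against T/S/Z and 8 higher for T/S/Z against T/5z. The cause was not tested. With 1 replicate left out at a time, the members called numbered 4 to 7 with T/5z, 2 to 6 with T/S/Z, 0 to 1 with T/S/Z/N against T/S/Z, 0 to 2 with T/S/Z against T/5z, 3 to 5 for the interaction and 1 to 2 for astrocyte T/S/Z/N against T/S/Z. By adjusted p alone, higher members numbered 11 to 21 with T/5z/N against T/5z, 14 to 28 with T/S/Z against T/5z and 10 to 16 for the interaction. Of 261 values of single called members under alternatives, 220 kept their call and 41 kept only their direction. Depth is unknown, so no limit of detection was set.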

Other observations

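Beyond the 41 members, 150 further lysosome and autophagy genes were listed, of which 144 were tested in microglia. By adjusted p 31 rose and 90 fell with T/5z (median -0.26), beside 27.4% and 36.8% of all genes. With T/S/Z 39 rose and 71 fell (median -0.14), beside 30.3% and 41.1%. Adding Nec-1s to T/5z raised 73 and lowered 17, beside 27.3% and 21.1%. The largest change was in Tfec, a relative of Tfeb and Tfe3, which rose by 3.91 ± 0.11 with T/5z (limma adjusted p = 6.70e-07) and by 2.93 with T/S/Z, and fell by 1.74 when Nec-1s was added to T/5z. Sgsh, the sulfamidase gene of heparan sulfate breakdown, changed by -2.09 with either stimulus, and Tpcn1, an endolysosomal channel gene, by -1.79 and -2.09. Sqstm1, which encodes the autophagy receptor p62, rose by 2.06 with T/S/Z. With Nec-1s added to T/S/Z, Ulk1, the autophagy kinase gene, changed by 1.34 and Litaf by -1.11. In astrocytes 18 of 141 tested rose and 26 fell with T/S/Z, beside 13.5% and 26.9% of all genes, so neither count stands above the background. The largest of these changes were in Ctsk, a collagen-degrading cathepsin gene, at -1.91, and Litaf, at 1.29. These counts are a description of a list compiled with earlier results known.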
